A study of Mus musculus with 32 samples.

Results

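The genes described here encode the subunits of RNA polymerases I, II and III, the general transcription factors and the Mediator complex. They were taken by name from the deposited expression tables: symbols that begin with Polr1, Polr2, Polr3, Gtf2 or Gtf3, with Taf or Med followed by a digit, and Tbp, Tbpl1 and Tbpl2, without names that hold -ps. The rule found 108 of the 46078 genes listed in each table, of which 28 are polymerase genes, 49 are general factor genes and 31 are Mediator genes. It also takes in 4 kinds of gene that the names share with these complexes. Polr2m has a product that binds polymerase II, and Taf15 is an RNA-binding protein of the FET family. The others are the TFII-I family (Gtf2i, Gtf2ird1 and Gtf2ird2) and Med9os, a non-coding RNA on the other strand beside Med9, without overlap. All 108 had a gene model in GENCODE M21 on mm10, and 107 of them are protein coding.

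The study asked how mouse embryos that lack Dppa2 or Dppa4 differ in their transcripts at the time the embryo's own genome is switched on. In the usual notation m stands for the egg's supply of the gene product and z for the gene copies of the embryo itself. An m-z+ embryo thus comes from an egg without that supply, and an m-z- embryo also lacks a working copy of its own. Total RNA was sequenced in 16 libraries, 2 for each of 8 groups: late 1-cell embryos at 12 hours and late 2-cell embryos at 28 hours after fertilization, labelled m+z+Dppa2 or m-z+Dppa2 on a mixed B6/DBA background and m+z+Dppa4 or m-z+Dppa4 on B6. PolyA RNA was sequenced in 16 libraries of single embryos: 2 WT at the 1-cell stage and 2 WT at the 2-cell stage, both B6, and 3 each of m-z+Dppa2, m-z-Dppa2, m-z+Dppa4 and m-z-Dppa4 at the 2-cell stage, on the background of their arm. Neither the making of the alleles nor the number of embryos in a total RNA library is recorded in the labels. No label ties the libraries of a group to separate collections of embryos, so the p-values below measure library-to-library spread, part of which may be technical.

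RNA polymerase I makes the large ribosomal RNAs, polymerase II makes messenger RNAs and polymerase III makes transfer RNAs and other short RNAs. Each is a complex of many subunits, some of which are used by more than 1 of the 3 enzymes, and each needs its own factors to find a start site: SL1 for polymerase I, TFIID with TFIIA, TFIIB, TFIIE, TFIIF and TFIIH for polymerase II, and TFIIIA, TFIIIC and TFIIIB for polymerase III. TBP, the TATA-binding protein, takes part in all of these, while Mediator, built of a head, a middle, a tail and a detachable kinase module around the backbone subunit MED14, carries signals from enhancer-bound factors to polymerase II. Egg cells carry forms of their own, among them TBPL2, which takes the place of TBP during oocyte growth, GTF2A1L, a germ cell TFIIA subunit, and TAF4B, a TAF enriched in the gonads. The late 1-cell and 2-cell stages span the destruction of transcripts stored in the egg and the start of transcription by the embryo.

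Summed over each list, stage markers followed the stage that the labels name, though not every gene of the lists did. The summed level of 7 oocyte and zygote genes was 1535 to 2213 FPKM (fragments per kilobase of transcript, scaled to library size) in the 1-cell total RNA libraries and 315 to 709 FPKM at the 2-cell stage. That of 9 genes of the 2-cell stage reached at most 28.6 FPKM in 1-cell total RNA and was 249.997 to 344 FPKM in 2-cell total RNA. In WT polyA RNA the oocyte sum went from 3356 and 3347 FPKM to 430 and 383 FPKM. The sum of the 2-cell genes went from 133 and 142 FPKM to 778 and 1354 FPKM there. Among these, Tcstv1 was already at 93.3 and 96.9 FPKM at the 1-cell stage, against 78.1 and 138 FPKM at the 2-cell stage. Zp3 of the oocyte list was at 70.8 and 87.4 FPKM and then at 90.1 and 66.2 FPKM. In total RNA, replicate 2 of m+z+Dppa4 held the highest oocyte sum of the 2-cell stage, 709 FPKM against 456 FPKM in replicate 1. Cumulus and granulosa genes summed to at most 49.8 FPKM and sperm genes to at most 21.9 FPKM in any library. Hemoglobin and Ptprc summed to 1532 FPKM in replicate 3 labelled m-z-Dppa2 and to at most 101 FPKM elsewhere. In the targeted genes, Dppa4 was listed at 0, 0 and 0.149 FPKM in m-z-Dppa4, but Dppa2 was at 155, 130 and 76.5 FPKM in the libraries labelled m-z-Dppa2 against 92.4, 87.4 and 63.3 FPKM in m-z+Dppa2, so that group is called by its label only. In 1-cell total RNA Dppa2 was at 32.3 and 32.7 FPKM in m+z+Dppa2 and at 9.38 and 9.52 FPKM in m-z+Dppa2, and Dppa4 at 4.37 and 6.92 FPKM in m+z+Dppa4 and at 1.13 and 0 FPKM in m-z+Dppa4. In 2-cell total RNA the levels of both genes overlapped between the m+z+ and m-z+ libraries of their arm. Across the libraries, 10706 to 13071 genes per total RNA library and 10842 to 13916 per polyA library reached 1 FPKM; the files hold no read counts, and sequencing depth is unknown.

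In total RNA 92 of the 108 genes were at 1 FPKM or more in all 16 libraries, in polyA RNA 87, and none was at 0 throughout a table. FPKM is scaled by transcript length, but other effects of each assay on coverage were not checked, so rankings of genes are rough. The highest means over the 16 total RNA libraries were those of Polr2c, the RPB3 subunit of polymerase II (151 FPKM), Gtf2a1, the large TFIIA subunit (151 FPKM), and Taf1d, an SL1 subunit (145 FPKM). In polyA RNA the highest means were those of Polr2j, another core polymerase II subunit (789 FPKM), Med27 of the Mediator tail (714 FPKM) and Polr2f, a subunit of all 3 enzymes (673 FPKM). At the low end, 8 genes were under 1 FPKM in 8 or more total RNA libraries, among them Gtf2i, Gtf2h4, Gtf3c4, Gtf3c5 and Taf7l. Together the 108 genes held 0.736% to 0.836% of the summed FPKM of a 1-cell total RNA library and 0.494% to 0.688% of a 2-cell one. In polyA RNA they held 1.54% to 1.61% of the WT 1-cell libraries and 1.24% to 1.96% of the 2-cell libraries. FPKM is a share of all measured transcripts, so a change in a gene's own copies per embryo and a change in the rest of the RNA cannot be told apart.

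From the 1-cell to the 2-cell stage the set split in 2 directions. Each of the 4 total RNA groups has its own 1-cell and 2-cell libraries, and in each the stage change was tested with limma on log2(FPKM + 1), with p-values adjusted over all 15068 genes tested. In m+z+Dppa2, 44 of the 108 genes rose, 35 fell and 29 did not pass the test. Of all genes tested there, 31.7% rose and 29.9% fell. The median stage change was 0.40 over the 108 genes and 0.06 over all genes, on the log2 scale. In m-z+Dppa2, 38 rose and 29 fell, against 28.8% and 28.4% of all genes, with medians of 0.21 and 0.02. In m+z+Dppa4, 34 rose and 25 fell, against 24.9% and 24.2% of all genes, with medians of 0.17 and 0.04. In m-z+Dppa4, 33 rose and 26 fell, against 25.3% and 25.0% of all genes, with medians of 0.09 and 0.03. As shares of the 108 genes, 30.6% to 40.7% rose and 23.1% to 32.4% fell. With FPKM as deposited, the falls thus lay near the share of all genes and the rises some percentage points above it.

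The balance of rises and falls moved with the scaling. Summed FPKM was higher in the 2-cell libraries, and when every library was scaled to the same sum (TPM), 27 of the 108 genes rose and 38 fell in m+z+Dppa2, 32 and 37 in m-z+Dppa2, 24 and 38 in m+z+Dppa4 and 23 and 33 in m-z+Dppa4. Under TPM 24.9%, 25.2%, 20.5% and 20.9% of all genes rose and 38.5%, 33.8%, 32.1% and 33.3% fell, in the same order. In each group the share of the 108 genes that rose lay closer to that of all genes than with FPKM as deposited. TPM scaling moved the median of all genes to -0.30, -0.19, -0.24 and -0.25 in the same order. Scaling by the median ratio moved it to 0.23, 0.18, 0.19 and 0.17, and gave 49 rises and 27 falls, 47 and 23, 39 and 24, and 39 and 22. Of all genes 35.8%, 33%, 29.0% and 29.4% rose under it and 25.3%, 24.6%, 20.0% and 21% fell. Directions below are relative to FPKM as deposited unless another scaling is named.

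Across the 4 total RNA groups 26 genes (24.1% of the 108) rose in every group, 20 (18.5%) fell in every group and none rose in 1 group and fell in another. Of all 15068 genes tested, 18.6%, 17.9% and 0.312% did so. A further 25 rose in 1 to 3 groups, 20 fell in 1 to 3 groups and 17 passed in none, against 19.7%, 18.8% and 24.7% of all genes. Of the 26, 14 kept all 4 calls under every alternative tried: Polr1b, Polr1c, Polr2f, Polr2h, Gtf2h4, Gtf2i, Gtf3c4, Gtf3c5, Taf1d, Taf2, Taf4b, Med13, Med16 and Med29. The other 12 lost at least 1 call under some alternative, and TPM scaling alone left 19 of the 26 with all 4. Of the 20 that fell, 12 kept all 4 calls under every alternative: Polr1d, Gtf2b, Gtf2h2, Taf1a, Taf1b, Taf7, Med6, Med8, Med17, Med18, Med23 and Med28. Median-ratio scaling alone left 15 of the 20. In single-embryo polyA RNA of WT embryos, 33 of the 108 genes rose and 7 fell, against 17.4% and 8.42% of the 18506 genes tested, and the medians were 0.62 over the 108 genes and 0.23 over all genes. Under TPM scaling these counts were 26 and 10 (all genes 16.4% and 9.89%), and under median-ratio scaling 26 and 11 (16.1% and 10.6%). The number of risen genes was 16 without WT 1-cell replicate 1, 17 without WT 1-cell replicate 2 and 21 without either WT 2-cell replicate, and the number of fallen genes 3, 3, 4 and 4, with 1 library of a stage left in each case. Of the 26 genes that rose in all 4 total RNA groups, 19 also rose in WT polyA RNA and none fell. Of the 20 that fell in all 4, 4 fell in WT polyA RNA, 1 rose and 15 did not pass. Of the 17 that passed in no total RNA group, 5 rose there (Gtf2h1, Gtf2h5, Med7, Polr2i and Polr3k) and none fell. The matching shares of all genes are not given.

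**Figure D1:**
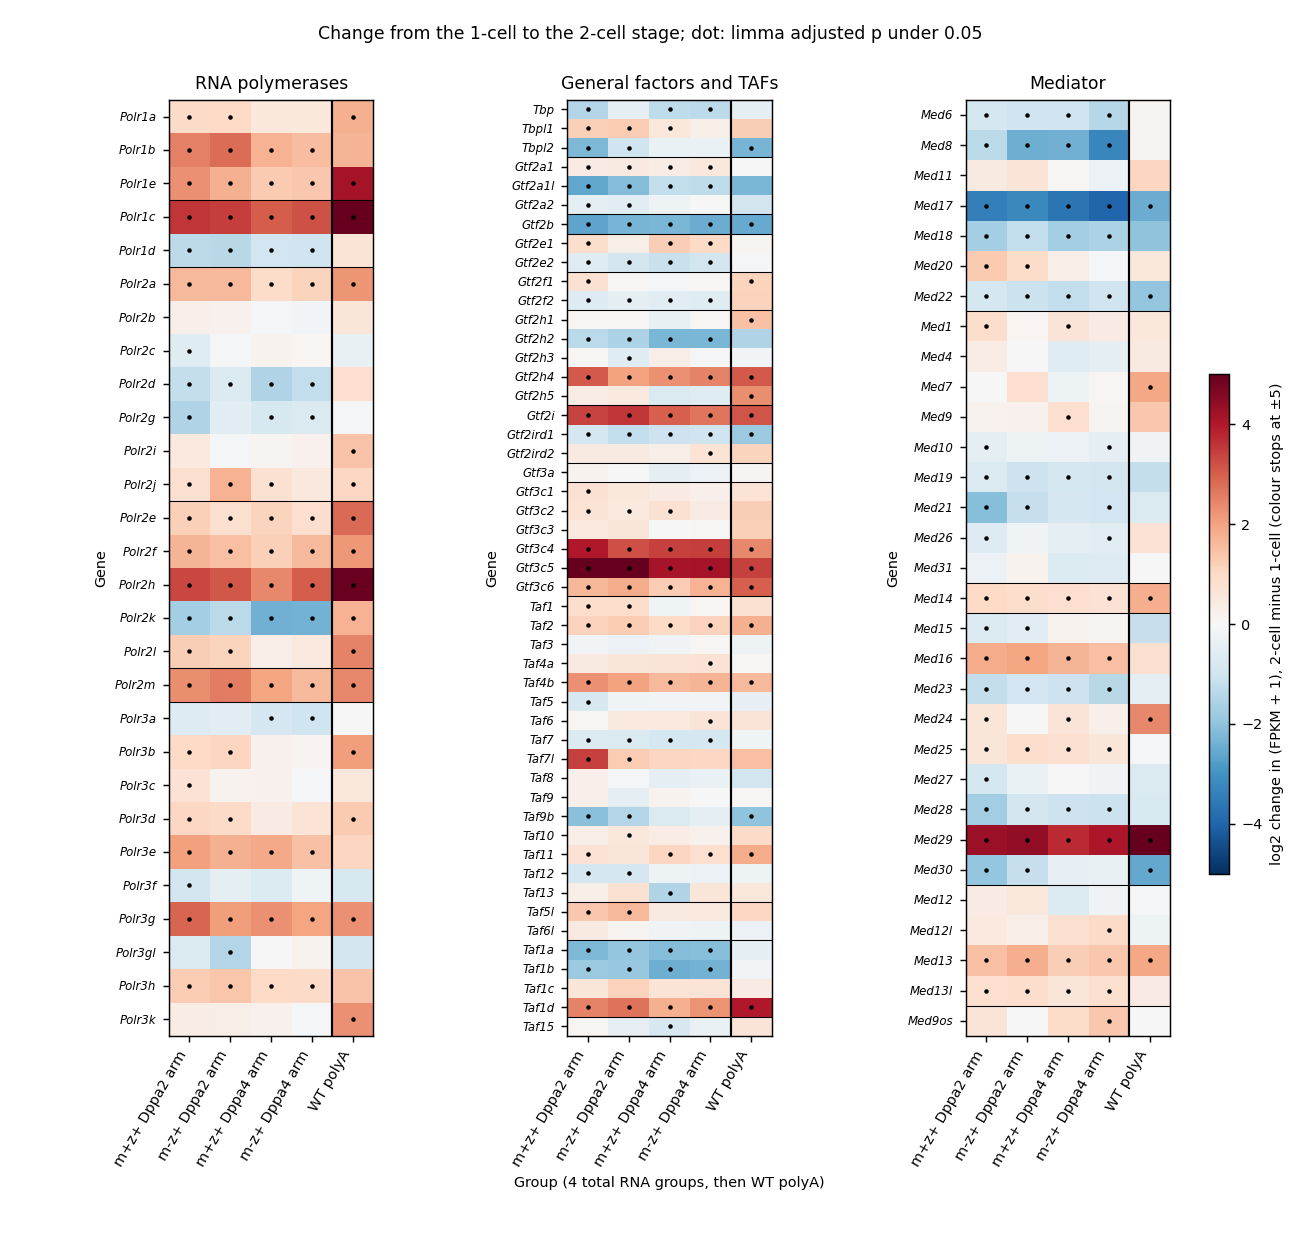
Each cell is the log2 difference in (FPKM + 1), 2-cell minus 1-cell, for 1 gene (rows, grouped by complex) in 1 group (columns: 4 total RNA groups with 2 libraries per stage, then WT polyA RNA with 2 per stage), red for higher and blue for lower at the 2-cell stage, with a dot where limma's adjusted p was under 0.05. The polymerase I, shared polymerase and TFIIIC genes are mostly red, the Mediator head is mostly blue, and Polr2k is blue in all 4 total RNA columns and red in polyA RNA.

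Gtf3c5, the TFIIIC subunit that helps to hold this polymerase III factor on DNA (chromosome 2, 28566311-28583751, reverse strand, mm10), was at 0.501 and 0.558 FPKM in the m+z+Dppa2 1-cell libraries and at 46.7 and 47.5 FPKM at the 2-cell stage. In m-z+Dppa2 it went from 0.257 and 0.260 FPKM to 43.8 and 46.4 FPKM, in m+z+Dppa4 from 0.774 and 0.283 FPKM to 34.2 and 18.2 FPKM, and in m-z+Dppa4 from 0.776 and 0.270 FPKM to 23.2 and 28.8 FPKM. Every 2-cell library was above every 1-cell library by a wide margin. The log2 changes were 4.97, 5.19, 4.11 and 4.16 with a standard error of 0.29 each (limma adjusted p from 4.33e-08 to 3.16e-07), the highest among the 108 genes in each group. Med29, a subunit of the Mediator tail (chromosome 7, 28386146-28392708, reverse strand), was at 1.14 to 2.31 FPKM in the 8 1-cell total RNA libraries and at 22.9 to 64.8 FPKM in the 8 2-cell libraries. In WT polyA RNA it went from 2.67 and 2.15 FPKM to 252 and 296 FPKM, a log2 change of 6.33 ± 0.47 (SE), the largest rise of the 108 genes there (limma adjusted p = 3.42e-08). An exon of Med29 overlaps Gm44710 on the other strand, which the unstranded polyA reads cannot tell apart. Gtf2i, whose product TFII-I binds initiator elements and relays signals to promoters (chromosome 5, 134237834-134314760, reverse strand), was at 0.0682 to 0.652 FPKM at the 1-cell stage and at 7.82 to 15.6 FPKM at the 2-cell stage in total RNA, with log2 changes of 3.38, 3.57, 2.99 and 2.67. Its groups did not overlap in any comparison of the stages, polyA RNA included.

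The deepest fall was that of Med17, the scaffold of the Mediator head (chromosome 9, 15260351-15279931, reverse strand). It was at 72.5 and 79.7 FPKM in the m+z+Dppa2 1-cell libraries and at 6.77 and 5.87 FPKM at the 2-cell stage, at 70.4 and 77.8 against 5.04 and 9.65 FPKM in m-z+Dppa2, at 90.0 and 85.4 against 4.94 and 7.48 FPKM in m+z+Dppa4, and at 89.8 and 99.8 against 4.58 and 5.84 FPKM in m-z+Dppa4. The highest 2-cell library, at 9.65 FPKM, was far below the lowest 1-cell library, at 70.4 FPKM. The log2 changes were -3.40, -3.23, -3.64 and -3.95 with a standard error of 0.25 each (limma adjusted p from 1.12e-07 to 4.08e-07), the lowest of the 108 genes in each group. In WT polyA RNA Med17 fell from 18.2 and 25 FPKM to 5.44 and 1.5 FPKM (log2 change -2.48 ± 0.60 SE, limma adjusted p = 0.00508). The polyA call was lost without WT 1-cell replicate 2 (adjusted p = 0.0608) or WT 2-cell replicate 2 (adjusted p = 0.0846).

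The promoters of 3 of these genes and of Tbpl2, the oocyte form of TBP described further on, are shown because they stand for a large rise in total and polyA RNA, a rise from near 0, a large fall and an oocyte-specific factor. They come from RefSeq on GRCm38.p6, cover up to 250 bases before the start of each gene, are cut short where they would enter an annotated exon, and all read on the reverse strand. Capitals mark matches to 4 motifs, searched on both strands. The core bound by ETS family factors was searched as CCGGAAG. The box bound by the factor NF-Y was searched as CCAAT. The GC box bound by SP family factors was searched as GGGCGG. The TATA box was searched as TATAAA.
Med29 (chr7:28392709-28392940): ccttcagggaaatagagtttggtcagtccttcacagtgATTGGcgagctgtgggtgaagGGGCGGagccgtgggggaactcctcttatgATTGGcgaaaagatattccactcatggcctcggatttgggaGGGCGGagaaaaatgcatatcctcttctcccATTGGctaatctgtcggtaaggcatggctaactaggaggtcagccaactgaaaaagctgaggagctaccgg
Gtf2i (chr5:134314761-134315010): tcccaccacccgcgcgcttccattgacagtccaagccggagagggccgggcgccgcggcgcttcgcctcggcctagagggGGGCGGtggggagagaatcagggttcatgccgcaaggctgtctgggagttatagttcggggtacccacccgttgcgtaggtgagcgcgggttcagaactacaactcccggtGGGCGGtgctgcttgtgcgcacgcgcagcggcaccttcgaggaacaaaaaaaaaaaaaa
Med17 (chr9:15279932-15280156): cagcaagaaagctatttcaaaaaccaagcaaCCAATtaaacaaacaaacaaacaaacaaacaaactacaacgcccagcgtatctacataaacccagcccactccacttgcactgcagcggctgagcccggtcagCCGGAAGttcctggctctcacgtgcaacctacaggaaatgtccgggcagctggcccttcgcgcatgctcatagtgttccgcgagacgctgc
Tbpl2 (chr2:24096596-24096845): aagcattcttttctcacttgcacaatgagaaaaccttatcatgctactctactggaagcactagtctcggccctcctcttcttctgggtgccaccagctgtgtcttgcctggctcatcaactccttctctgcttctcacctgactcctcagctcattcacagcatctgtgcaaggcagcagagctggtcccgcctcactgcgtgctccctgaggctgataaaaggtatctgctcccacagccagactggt
The Med29 promoter holds 3 CCAAT and 2 GC box matches, that of Gtf2i holds 2 GC box matches, that of Med17 holds 1 ETS and 1 CCAAT match, and none of these letter runs is in the Tbpl2 window. Of the 108 genes, 93 matched a RefSeq promoter. Over their full 250 bases, GGGCGG was in 55 of the 93 and in 32.9% of all 27025 promoters, CCGGAAG in 22 of 93 and 7.05%, CCAAT in 29 of 93 and 34.5%, and TATAAA in 13 of 93 and 13%. Among the genes that rose in all 4 groups, 16 of 23 promoters held GGGCGG and 3 of 23 held CCAAT. Among those that fell in all 4 groups, 6 of 14 held GGGCGG and 7 of 14 held CCAAT. These are matches of letters and not measured sites.

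Of the polymerase I genes, Polr1b and Polr1e rose in all 4 total RNA groups and Polr1a in 2. Polr1b, the second-largest subunit, was at 1.29 to 2.74 FPKM in the 8 1-cell total RNA libraries and at 5.90 to 23.2 FPKM in the 8 2-cell libraries, and its log2 changes were 2.53, 2.78, 1.72 and 1.56 in m+z+Dppa2, m-z+Dppa2, m+z+Dppa4 and m-z+Dppa4. Polr1e, the PAF53 subunit, rose by 2.28, 1.79, 1.32 and 1.36 on the log2 scale in the same order. Its call in m+z+Dppa4 was lost without 2-cell replicate 1 (log2 change 0.73, limma adjusted p = 0.0549), the replicate with 34.1 FPKM where the other had 14.5 FPKM. Polr1a, the largest subunit, rose in both Dppa2-arm groups, by 0.96 and 1.01, and had log2 changes of 0.54 and 0.51 with adjusted p = 0.103 and 0.121 in the Dppa4-arm groups. Its m+z+Dppa2 call was lost under TPM scaling (adjusted p = 0.0883) and its m-z+Dppa2 call without 1-cell replicate 1 (0.0655). Among polyA libraries of WT, Polr1e rose by 4.17 ± 0.55 (SE), from 2.87 and 4.06 FPKM to 64.3 and 96.2 FPKM, whereas Polr1b, at 0.415 and 2.33 FPKM and then at 5.72 and 6.49 FPKM, did not pass (adjusted p = 0.0696).

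The 2 subunits that polymerases I and III share went opposite ways in total RNA. Polr1c (chromosome 17, 46243920-46248054, reverse strand) was at 0.981 to 2.31 FPKM at the 1-cell stage and at 12.5 to 39.7 FPKM at the 2-cell stage, with log2 changes of 3.59, 3.46, 3.03 and 3.20 over the 4 groups. Its partner Polr1d was at 41.1 to 67.1 FPKM and then at 17.7 to 25.6 FPKM, with log2 changes of -1.30, -1.39, -0.97 and -0.98 (limma adjusted p from 3.34e-05 to 0.000839). The products of these genes pair with each other in both enzymes. On the per-length scale of FPKM, Polr1d was far above Polr1c in every 1-cell total RNA library, and at the 2-cell stage their ranges overlapped. Polr1c also rose in WT polyA RNA, from 2.63 and 3.24 FPKM to 163 and 177 FPKM, and Polr1d, at 88.0 and 114 FPKM and then at 164 and 160 FPKM, did not pass (log2 change 0.69, adjusted p = 0.306).

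Of the 7 genes of polymerase II alone, 1 rose in all 4 groups and 1 fell in all 4. Polr2a, the catalytic subunit with the heptad-repeat tail, rose from 7 to 9.29 FPKM over the 8 1-cell libraries to 15.1 to 38.9 FPKM over the 8 2-cell libraries. Its log2 changes were 1.60 and 1.64 in the Dppa2 arm (limma adjusted p = 0.000497 and 0.000443) and 0.94 and 1.11 in the Dppa4 arm (adjusted p = 0.02 and 0.00799). The m+z+Dppa4 call was lost under TPM scaling (adjusted p = 0.122), with no filter on low values (0.0529) and without 1-cell replicate 1, 1-cell replicate 2 or 2-cell replicate 1 (0.0615, 0.0935 and 0.0882). That of m-z+Dppa4 was lost under TPM scaling (0.0519) and without 2-cell replicate 2 (0.0821). Polr2b, the second-largest subunit, passed in no group, with log2 changes from -0.13 to 0.26 in total RNA and 0.61 in WT polyA RNA (adjusted p = 0.22 or more). Polr2d, the RPB4 subunit of the polymerase stalk, fell by 1.2, 0.68, 1.49 and 1.24 on the log2 scale over the 4 total RNA groups. Its m-z+Dppa2 call was lost without 1-cell replicate 1 or 2 or 2-cell replicate 1 (adjusted p = 0.0684, 0.21 and 0.255), under median-ratio scaling (0.155), with no filter (0.114), with a pseudocount of 0.1 (0.0505) and with the replicate block (0.0561).

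Among the 5 subunits used by all 3 polymerases, Polr2e, Polr2f and Polr2h rose in all 4 total RNA groups, Polr2l rose in both Dppa2-arm groups, and Polr2k fell in all 4. The Polr2e calls were lost under TPM scaling in m-z+Dppa2 and m-z+Dppa4 (limma adjusted p = 0.0883 and 0.112), with no filter on low values in the same groups (0.0691 and 0.063), and with only the compared libraries in m-z+Dppa2 (0.0532). They were also lost without single libraries in m-z+Dppa2 (0.0628 to 0.209), m+z+Dppa4 (0.0819) and m-z+Dppa4 (0.0561 to 0.165). Polr2h (chromosome 16, 20717665-20722267, forward strand) went from 0.918 to 1.86 FPKM at the 1-cell stage to 9.6 to 24.3 FPKM at the 2-cell stage in total RNA, with log2 changes of 3.34, 3.09, 2.40 and 3.05. In WT polyA RNA it went from 10.7 and 9.43 FPKM to 414 and 280 FPKM (log2 change 4.95 ± 0.37 SE). An exon of it overlaps Clcn2 on the other strand.

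Polr2k, a small zinc-binding subunit (chromosome 15, 36174010-36177010, forward strand), was the 1 gene of the 108 that passed in opposite directions in total RNA of m+z+Dppa4 and polyA RNA of WT, which are both B6. In total RNA it was at 40.2 and 32.4 FPKM in the m+z+Dppa4 1-cell libraries and at 10.6 and 3.22 FPKM at the 2-cell stage, a log2 change of -2.41 ± 0.45 (SE, limma adjusted p = 0.000766). In m-z+Dppa4 it went from 42.2 and 40.6 FPKM to 4.82 and 10.5 FPKM (-2.37), in m+z+Dppa2 from 38 and 40.6 FPKM to 17.6 and 7.38 FPKM (-1.69), and in m-z+Dppa2 from 31.2 and 38.8 FPKM to 12.4 and 14.1 FPKM (-1.33). Its WT polyA levels were 51.5 and 115 FPKM and then at 170 and 386 FPKM, a log2 change of 1.72 ± 0.58 (SE, adjusted p = 0.0363). All 2-cell libraries were below all 1-cell libraries in total RNA, and both WT 2-cell libraries were above both WT 1-cell libraries in polyA RNA. The polyA call was lost without WT 1-cell replicate 1 (adjusted p = 0.314) or WT 2-cell replicate 2 (0.286), under TPM scaling (0.0638) and under median-ratio scaling (0.0664). In total RNA the m+z+Dppa2 call was lost without 2-cell replicate 2 (0.0737) and the m-z+Dppa2 call without any 1 of its 4 libraries (0.0515 to 0.112), while the Dppa4-arm calls held under all alternatives. The other 2-cell polyA groups, at up to 467 FPKM, lay above both WT 1-cell libraries.

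Polymerase III has 10 genes of its own here, of which 3 rose in all 4 total RNA groups, 3 in some, 3 fell in some and 1 passed in none. POLR3G and POLR3GL are alternative forms of 1 subunit, the former typical of early embryos and stem cells. Polr3g was at 1.31 to 2.55 FPKM in the 8 1-cell total RNA libraries and at 3.96 to 21.3 FPKM in the 8 2-cell libraries, with log2 changes of 2.93, 2.08, 2.28 and 1.97. Replicate 1 of m-z+Dppa2 at the 2-cell stage, at 3.96 FPKM, lay far below replicate 2 at 21.3 FPKM. The m-z+Dppa2 call was lost without 2-cell replicate 2 (limma adjusted p = 0.0686), and the m-z+Dppa4 call without 1-cell replicate 1 (0.0511) or 2-cell replicate 2 (0.101). Polr3g also rose in WT polyA RNA, from 8.96 and 8.22 FPKM to 45.4 and 46.7 FPKM (log2 change 2.30 ± 0.44 SE, adjusted p = 0.000847). Polr3gl was between 0 and 5.25 FPKM in every library and passed in m-z+Dppa2 alone, where it fell by 1.48 on the log2 scale (adjusted p = 0.00859). That call was lost without 1-cell replicate 2 (0.0568) or 2-cell replicate 1 (0.0575). The catalytic pair of the enzyme did not move together: Polr3a fell in the Dppa4-arm groups (log2 changes -0.85 and -1.01), each call being lost when single libraries were left out (adjusted p from 0.0516 to 0.189), and Polr3b rose in the Dppa2-arm groups (1.01 and 1.08) and in WT polyA RNA (2.08). The Polr3b calls were each lost when single libraries were left out, with adjusted p from 0.0779 to 0.141. That of m+z+Dppa2 was also lost under TPM scaling (0.139), and both Dppa2-arm calls with no filter (0.062 and 0.0502).

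**Figure D2:**
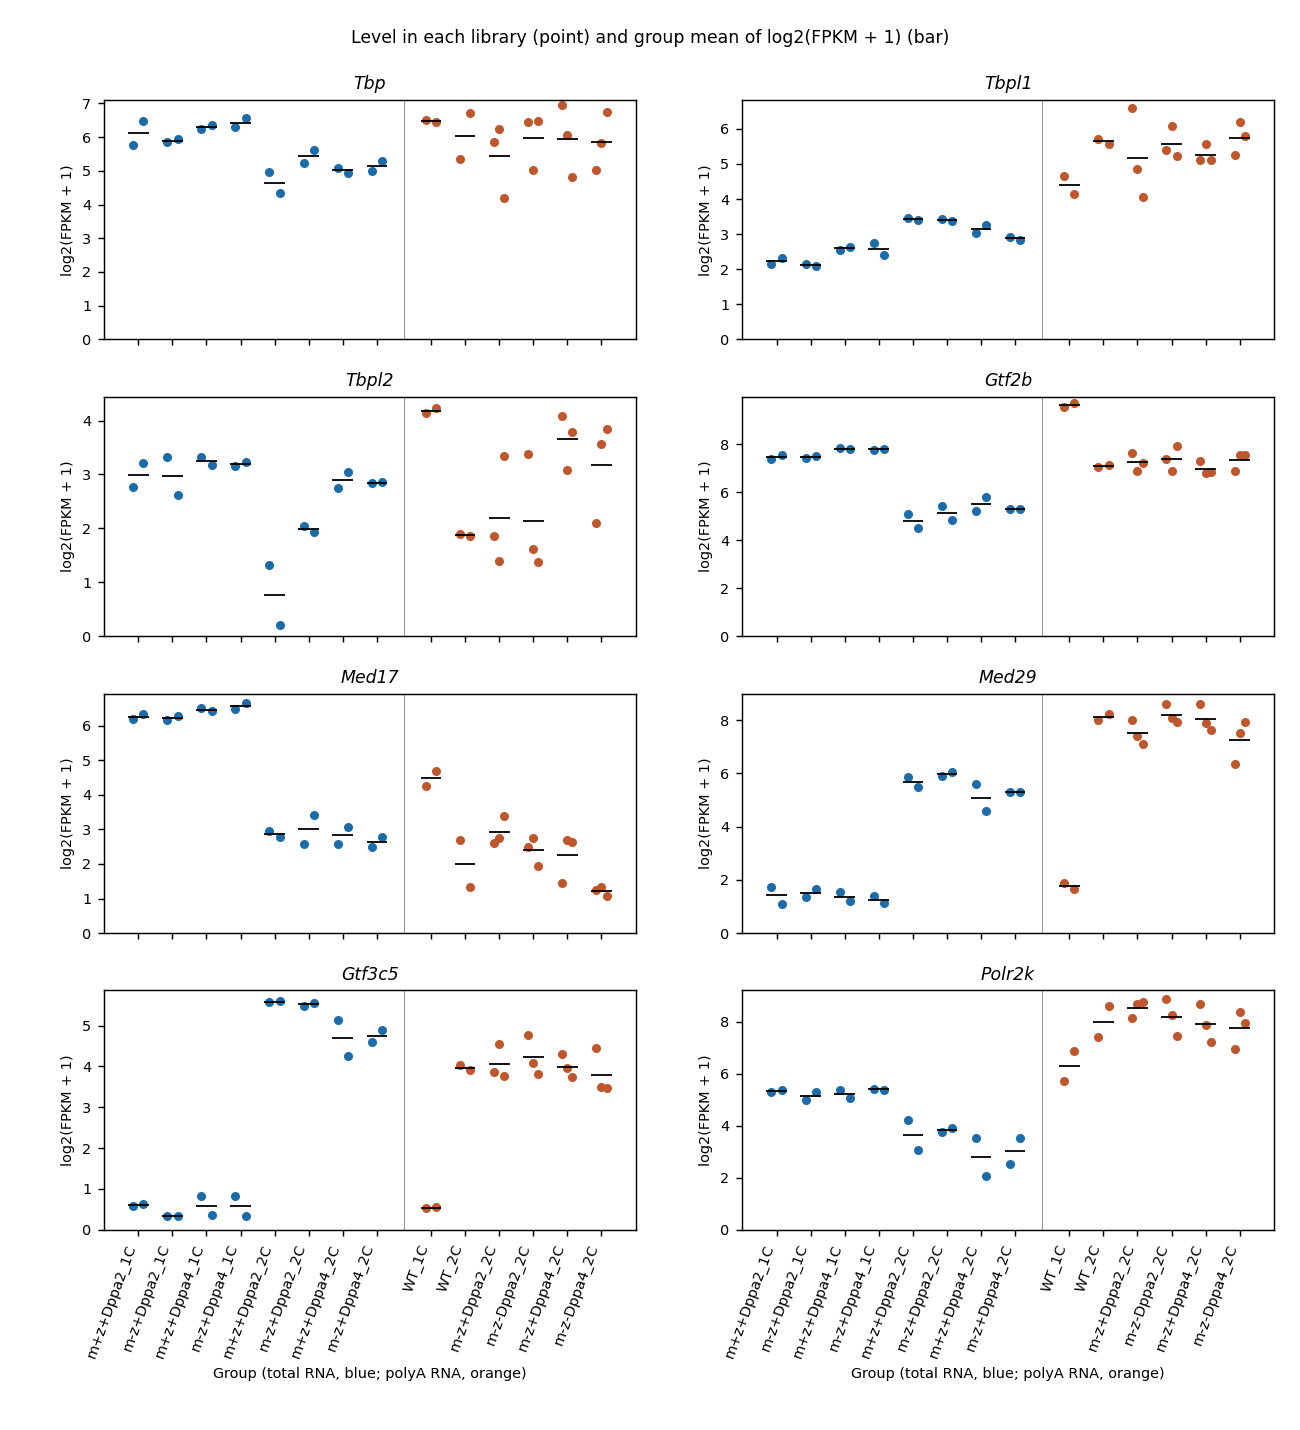
Each point is 1 library's log2(FPKM + 1) for 8 genes, in 8 total RNA groups of 2 (blue) and 6 polyA groups of 2 or 3 (orange), and each bar is the group mean; every vertical axis starts at 0. Tbp, Gtf2b and Med17 are lower in the 2-cell than in the 1-cell total RNA libraries, Tbpl1, Med29 and Gtf3c5 are higher, Tbpl2 separates the Dppa2 from the Dppa4 arm in 2-cell total RNA, and Polr2k runs opposite ways in total and polyA RNA.

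The 3 TBP family genes had 3 different courses. Tbp (chromosome 17, 15499888-15528379, forward strand) was at 53.6 and 87.3 FPKM in the m+z+Dppa2 1-cell libraries and at 30.1 and 19.2 FPKM at the 2-cell stage, at 74.4 and 81.3 against 33.3 and 29.8 FPKM in m+z+Dppa4, and at 77.1 and 93.5 against 30.6 and 37.8 FPKM in m-z+Dppa4. It fell in these 3 groups, by 1.47, 1.28 and 1.29 on the log2 scale (limma adjusted p = 0.000235, 0.000981 and 0.000847). In m-z+Dppa2, at 56.7 and 60.1 FPKM and then at 36.9 and 47.9 FPKM, the groups did not overlap but the change of -0.46 did not pass (adjusted p = 0.128). The levels in WT polyA RNA were 90.4 and 85.6 FPKM and then 39.5 and 104 FPKM, which overlap (adjusted p = 0.729). An exon of Tbp overlaps Pdcd2 on the other strand.

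Tbpl1, the TBP-like factor known for its part in sperm formation (chromosome 10, 22703879-22731938, reverse strand), was at 3.30 to 5.66 FPKM at the 1-cell stage and at 6.15 to 10.1 FPKM at the 2-cell stage in total RNA, with no overlap. It rose in m+z+Dppa2 by 1.19 and in m-z+Dppa2 by 1.27 (limma adjusted p = 0.000219 and 0.000139). In m+z+Dppa4 it rose by 0.55 (adjusted p = 0.0352), a call that was lost under TPM scaling (0.376) and without 1-cell replicate 1, 1-cell replicate 2 or 2-cell replicate 2 (0.149, 0.0959 and 0.143). In m-z+Dppa4 the change was 0.31 (adjusted p = 0.213).

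Tbpl2, the oocyte form of TBP (chromosome 2, 24071721-24096595, reverse strand), was at 5.15 to 9.01 FPKM in the 8 1-cell total RNA libraries. At the 2-cell stage it was at 1.48 and 0.149 FPKM in m+z+Dppa2 and at 3.14 and 2.82 FPKM in m-z+Dppa2, but at 5.73 and 7.31 FPKM in m+z+Dppa4 and at 6.15 and 6.23 FPKM in m-z+Dppa4. The 2-cell libraries of the Dppa2 arm were thus all below those of the Dppa4 arm. Tbpl2 fell in m+z+Dppa2 by 2.23 ± 0.34 (SE, log2 scale, limma adjusted p = 9.83e-05) and in m-z+Dppa2 by 0.98 (adjusted p = 0.025), and the changes of -0.34 and -0.35 in the Dppa4 arm did not pass. The m-z+Dppa2 call was lost without 1-cell replicate 1, 2-cell replicate 1 or 2-cell replicate 2 (0.213, 0.059 and 0.0882), under median-ratio scaling (0.063), with no filter (0.0595), with only the compared libraries (0.0582) and with a pseudocount of 0.1 (0.126). The difference between the stage changes of the 2 m+z+ groups was -1.89 ± 0.48 (SE) and did not pass over all genes (adjusted p = 0.108). In WT polyA RNA, which is B6 like the Dppa4 arm, Tbpl2 fell from 16.6 and 17.9 FPKM to 2.73 and 2.64 FPKM (log2 change -2.31, adjusted p = 0.0318), and that call was lost without any 1 of the 4 WT libraries (0.11 to 0.137). Single embryos of the Dppa4 arm at the 2-cell stage were at 16, 7.44 and 12.9 FPKM (m-z+Dppa4) and at 3.30, 10.8 and 13.3 FPKM (m-z-Dppa4). Oocyte marker sums were 315 to 407 FPKM in the Dppa2-arm 2-cell total RNA libraries and 456 to 709 FPKM in those of the Dppa4 arm. They were 383 and 430 FPKM in 2-cell WT polyA RNA and 338 to 1071 FPKM in the Dppa4-arm polyA libraries. Among the latter, the m-z+Dppa4 embryo with 16 FPKM of Tbpl2 had the sum of 338 FPKM. The m-z-Dppa4 embryo with 3.30 FPKM of Tbpl2 had the sum of 1071 FPKM. The part of these marker differences in the Tbpl2 result was not tested, and arm and strain background cannot be told apart.

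TFIIB, the factor that bridges TBP and polymerase II, is made from 1 gene, and it fell in every stage comparison. Gtf2b (chromosome 3, 142765045-142783606, forward strand) was at 164 to 228 FPKM in the 8 1-cell total RNA libraries and at 22.0 to 55.2 FPKM in the 8 2-cell libraries. Its WT polyA levels were 743 and 833 FPKM and then at 131 and 139 FPKM. No 2-cell library came near a 1-cell one. The log2 changes were -2.64, -2.33, -2.30 and -2.49 in total RNA and -2.53 in polyA RNA (limma adjusted p from 1.34e-06 to 6.99e-05), and these calls held under all alternatives.

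The TFIIA large subunit and its germ cell form parted. Gtf2a1 was at 120 to 134 FPKM at the 1-cell stage and at 157 to 196 FPKM at the 2-cell stage in total RNA, without overlap, and rose by 0.40, 0.46, 0.38 and 0.54 on the log2 scale (limma adjusted p from 0.00171 to 0.0135). All 4 calls were lost under TPM scaling (adjusted p = 0.299 to 0.889), where the m+z+Dppa2 change was -0.059, and that of m+z+Dppa4 also without 1-cell replicate 2 (0.0809). Gtf2a1l was at 5.15 to 9.13 FPKM at the 1-cell stage and at 0 to 2.87 FPKM at the 2-cell stage, and fell by 2.61, 2.15, 1.22 and 1.27. In the Dppa4 arm its calls were lost with a pseudocount of 0.1 (0.107 and 0.0986), and also without m+z+Dppa4 1-cell replicate 2 (0.0642) or 2-cell replicate 2 (0.0722) and without m-z+Dppa4 2-cell replicate 1 (0.0844).

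The other general factors of polymerase II were mixed. Of the 5 TFIIH genes of the rule, Gtf2h4, a core subunit that anchors the XPB helicase, was at 0 to 0.933 FPKM at the 1-cell stage and at 3.27 to 10.7 FPKM at the 2-cell stage, with log2 changes of 3.06, 2.01, 2.30 and 2.47. Gtf2h2, another core subunit, fell in all 4 groups, and Gtf2h1 and Gtf2h5 passed in none. Gtf2h5, the smallest subunit, was at 5.14 to 10.4 FPKM in 1-cell and 4.37 to 16.2 FPKM in 2-cell total RNA, which overlap, yet in WT polyA RNA it rose from 25.3 and 34.6 FPKM to 109 and 218 FPKM (log2 change 2.34 ± 0.41 SE, limma adjusted p = 0.000348). In TFIIE and TFIIF the 2 subunits of each factor went opposite ways in total RNA where they passed. Gtf2e1 and Gtf2f1 rose in 1 to 3 groups, and Gtf2e2 and Gtf2f2 fell in all 4. Gtf2f1 means went from 75.4 to 130 FPKM in m+z+Dppa2 but from 95.9 to 100 FPKM in m-z+Dppa2 and from 69.7 to 65.4 FPKM in m+z+Dppa4. Under median-ratio scaling Gtf2e2 and Gtf2f2 did not keep all 4 calls. In WT polyA RNA Gtf2f1 rose (1.11, adjusted p = 0.0318), and the change of 1.16 in Gtf2f2 did not pass (0.126). Neither TFIIE gene passed there.

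TFIIIC, which recruits polymerase III to transfer RNA genes, rose as far as it passed. Of its 6 genes, Gtf3c4, Gtf3c5 and Gtf3c6 rose in all 4 total RNA groups, Gtf3c1 and Gtf3c2 in some and Gtf3c3 in none. Gtf3c4 was at 0.335 to 0.672 FPKM at the 1-cell stage and at 9.50 to 34.3 FPKM at the 2-cell stage, with log2 changes of 4.01, 3.23, 3.42 and 3.46 (standard error 0.36). Gtf3c1, the largest DNA-contacting subunit, was already at 14.5 to 19.8 FPKM at the 1-cell stage and passed only in m+z+Dppa2 (log2 change 0.78, limma adjusted p = 0.023). That call was lost without 1-cell replicate 1 (0.0716), 1-cell replicate 2 (0.086) or 2-cell replicate 1 (0.136), and under TPM scaling (0.281). Gtf3c5 rose in WT polyA RNA too, from 0.439 and 0.462 FPKM to 15.4 and 14 FPKM (3.43 ± 0.49 SE, adjusted p = 5.01e-05), and Gtf3c6 from 10.8 and 8.11 FPKM to 62.6 and 108 FPKM (3.01 ± 0.46 SE, adjusted p = 9.83e-05). Gtf3a, which encodes TFIIIA, the factor of the 5S ribosomal RNA genes, passed in no comparison, with log2 changes from -0.44 to 0.18 and adjusted p = 0.278 or more.

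The 16 TAFs of TFIID included 2 that rose in all 4 total RNA groups, 6 that rose in some, 4 that fell in some, 1 that fell in all and 3 that passed in none. Taf4b rose from 6.16 to 9.36 FPKM at the 1-cell stage to 23.8 to 42.4 FPKM at the 2-cell stage (log2 changes 2.27, 2.00, 1.63 and 1.70, limma adjusted p from 1.2e-06 to 3.03e-05). Its ubiquitous paralogue Taf4a was at 24 to 61.2 FPKM over the 16 libraries and passed only in m-z+Dppa4 (0.71, adjusted p = 0.0422), a call lost under TPM scaling (0.319), with no filter (0.104), with only the compared libraries (0.0891), with the replicate block (0.052) and without 1-cell replicate 1 (0.419), 2-cell replicate 1 (0.13) or 2-cell replicate 2 (0.111). Taf4b rose in WT polyA RNA as well, from 6.48 and 6 FPKM to 27.8 and 15.8 FPKM (1.60, adjusted p = 0.00917), a call lost without WT 1-cell replicate 1 or 2 or 2-cell replicate 1 (0.0515, 0.066 and 0.12). Taf1, the largest TAF and the scaffold of TFIID, rose in both Dppa2-arm groups (0.87 each, adjusted p = 0.0387 and 0.04) and had changes of -0.21 and 0.08 in the Dppa4 arm. The m+z+Dppa2 call was lost without 1-cell replicate 2 (0.245), 2-cell replicate 1 (0.0811) or 2-cell replicate 2 (0.13), and the m-z+Dppa2 call without 1-cell replicate 1 (0.245) or 2-cell replicate 2 (0.202). Both Taf1 calls were also lost under TPM scaling (0.248 and 0.105) and with no filter (0.0975 and 0.102). Taf2, a large TAF that contacts promoter DNA, rose by 1.15, 1.26, 0.99 and 1.14 in total RNA.

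Paralogous TAFs differed in other pairs too. Taf7 fell in all 4 total RNA groups, by 0.68, 0.71, 0.87 and 0.88 on the log2 scale, from 107 to 122 FPKM to 57.4 to 72.3 FPKM. Taf7l, its germ cell paralogue, was listed at 0 in 7 of the 8 1-cell total RNA libraries and at 0.170 FPKM in the eighth. At the 2-cell stage it was at 13 and 7.07 FPKM in m+z+Dppa2, at 2.15 and 1.12 FPKM in m-z+Dppa2, at 2.22 and 0.394 FPKM in m+z+Dppa4 and at 2.21 and 0.283 FPKM in m-z+Dppa4. It rose in m+z+Dppa2 (limma adjusted p = 3.36e-05) and in m-z+Dppa2 (adjusted p = 0.0302), the latter call being lost without 1-cell replicate 1, 1-cell replicate 2 or 2-cell replicate 1 (0.0696, 0.123 and 0.162). Taf9b fell in the Dppa2 arm by 2.08 and 1.48, from 69.2 to 83 FPKM to 13.1 to 27.7 FPKM, and in WT polyA RNA by 2.02, from 181 and 118 FPKM to 41.1 and 30.1 FPKM (adjusted p = 0.00453, and 0.0685 without WT 1-cell replicate 1). In the Dppa4 arm its changes of -0.74 and -0.50 did not pass. Its paralogue Taf9, whose exons overlap Ak6 on the same strand, passed in no comparison.

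Of the 4 SL1 TAFs, Taf1d rose in all 4 total RNA groups, Taf1a and Taf1b fell in all 4, and Taf1c passed in none. SL1 brings TBP to ribosomal RNA genes. Taf1d rose from 38 to 57.0 FPKM at the 1-cell stage to 154 to 340 FPKM at the 2-cell stage in total RNA (log2 changes 2.48, 2.71, 1.79 and 2.24) and from 32.8 and 43.1 FPKM to 527 and 733 FPKM in WT polyA RNA (4.01 ± 0.37 SE). Small RNA genes lie within exons of Taf1d on the same strand. Taf1a fell from 145 to 225 FPKM to 25.9 to 54.4 FPKM (-2.25, -1.93, -2.17 and -2.13), and Taf1b from 27.8 to 36.8 FPKM to 4.35 to 9.67 FPKM (-1.84, -1.91, -2.44 and -2.35). Neither passed in WT polyA RNA: Taf1a was at 149 and 118 FPKM and then at 109 and 84.6 FPKM, and Taf1b at 25.5 and 31.7 FPKM and then at 27.1 and 24.2 FPKM (limma adjusted p = 0.453 and 0.928). All the total RNA calls of these 3 genes held under every alternative.

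Mediator's modules were mixed within themselves. Of the 7 head genes, 5 fell in all 4 total RNA groups (Med6, Med8, Med17, Med18 and Med22), Med20 rose in both Dppa2-arm groups and Med11 passed in none. The Med20 call in m+z+Dppa2 was lost without 1-cell replicate 1 (adjusted p = 0.0579), and that in m-z+Dppa2 without any 1 of its 4 libraries (0.0636 to 0.135). Med8 was at 42.8 to 66.9 FPKM at the 1-cell stage and at 3.88 to 18.9 FPKM at the 2-cell stage, with log2 changes of -1.36, -2.45, -2.39 and -3.26 (standard error 0.25). Its WT polyA levels were 28.6 and 29.8 FPKM and then at 25.3 and 41.3 FPKM, which overlap (limma adjusted p = 0.906). Of the 4 kinase module genes of the rule, Med13 and Med13l rose in all 4 groups, Med12l rose in m-z+Dppa4 alone (0.94, adjusted p = 0.0428), and Med12 passed in none. The Med13l calls in m+z+Dppa2 and m+z+Dppa4 were lost under TPM scaling (0.0693 and 0.19), the latter also with only the compared libraries (0.0548). The Med12l call was lost under TPM scaling (0.146), with no filter (0.0977), with a pseudocount of 0.1 (0.0511) and without 1-cell replicate 1 (0.135), 1-cell replicate 2 (0.122) or 2-cell replicate 2 (0.246). Med12, which activates the kinase, was at 3.39 to 17.3 FPKM over the 16 total RNA libraries, with log2 changes from -0.67 to 0.56. Med13, the large subunit that links the kinase to the core, rose from 21.8 to 27.7 FPKM to 58.7 to 85.7 FPKM (1.52, 1.81, 1.22 and 1.36) and in WT polyA RNA from 6.30 and 6.18 FPKM to 30.1 and 23.8 FPKM (1.94 ± 0.41 SE, adjusted p = 0.00193).

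The backbone, middle and tail of Mediator were divided. Med14 rose in all 4 total RNA groups, by 1.00, 0.89, 0.85 and 0.71 on the log2 scale, and in WT polyA RNA from 9.16 and 8.75 FPKM to 32.6 and 36.6 FPKM (1.83, limma adjusted p = 0.00103). Under TPM scaling the total RNA calls of m+z+Dppa2, m+z+Dppa4 and m-z+Dppa4 were lost (adjusted p = 0.0621, 0.0952 and 0.222). With only the compared libraries in the fit that of m-z+Dppa2 was lost (0.0505), and with no filter on low values that of m-z+Dppa4 (0.0647). Calls were also lost in m-z+Dppa2 without 1-cell replicate 1 or 2-cell replicate 2 (0.0764 and 0.0772), m+z+Dppa4 without 1-cell replicate 2 or 2-cell replicate 1 (0.0671 and 0.0666), and m-z+Dppa4 without 1-cell replicate 1, 1-cell replicate 2 or 2-cell replicate 2 (0.0635, 0.127 and 0.137). Of the 9 middle genes, 1 fell in all 4 groups (Med19), 3 in some, 2 rose in some and 3 passed in none. Med1, the subunit that nuclear receptors bind, rose in m+z+Dppa2 (0.89, adjusted p = 0.00157) and in m+z+Dppa4 (0.64, 0.0157), both calls being lost under TPM scaling (0.072 and 0.232) and the latter also with only the compared libraries (0.0638) and without 1-cell replicate 2 (0.182) or 2-cell replicate 1 (0.0539). Of the 9 tail genes, Med16, Med25 and Med29 rose in all 4 groups, Med23 and Med28 fell in all 4, Med24 rose in some, and Med15, Med27 and Med30 fell in some. Med23, a tail subunit that receives growth-factor signals, fell by 1.19, 0.97, 1.03 and 1.39 on the log2 scale, from 23.5 to 39.4 FPKM to 11.4 to 14.7 FPKM. Med30 was at 72.9 to 100 FPKM in the 8 1-cell total RNA libraries. At the 2-cell stage it was at 18.8 and 28.0 FPKM in m+z+Dppa2 and at 41.9 and 34.1 FPKM in m-z+Dppa2, but at 42.1 and 103 FPKM in m+z+Dppa4 and at 60.8 and 77.3 FPKM in m-z+Dppa4. It fell in m+z+Dppa2 (-1.92, adjusted p = 0.000246), in m-z+Dppa2 (-1.16, 0.00839) and in WT polyA RNA, from 662 and 668 FPKM to 129 and 97.2 FPKM (-2.56 ± 0.46 SE, 0.00043). The m-z+Dppa2 call was lost without 1-cell replicate 2 (0.0762) or 2-cell replicate 2 (0.0562).

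Total and polyA RNA were set side by side for B6 embryos, m+z+Dppa4 in total RNA and WT in polyA RNA, which share no library. The change between stages had the same sign in 80 of the 108 genes, the opposite sign in 27, and was 0 in 1. Across the 108 genes Pearson's r was 0.726 and Spearman's rho 0.697, given as a description because genes are not independent replicates. The polyA change was the higher of the pair in 71 genes. Of the 34 genes that rose in total RNA, 33 had a positive change in polyA RNA and 22 rose there. Of the 25 that fell in total RNA, 9 had a positive change in polyA RNA, 4 fell, 1 rose (Polr2k) and 20 did not pass. The same counts and correlations over all genes are not given. The median change of all genes tested was 0.04 in m+z+Dppa4 total RNA and 0.23 in WT polyA RNA, so these counts are not read as particular to the set. Poly(A) tails lengthen on some stored transcripts of eggs and embryos and shorten on others, so the amount of an RNA and the amount caught by its tail need not move together. The 2 kits, the use of single embryos and the RNA fraction differ between these tables, and their parts were not tested.

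**Figure D3:**
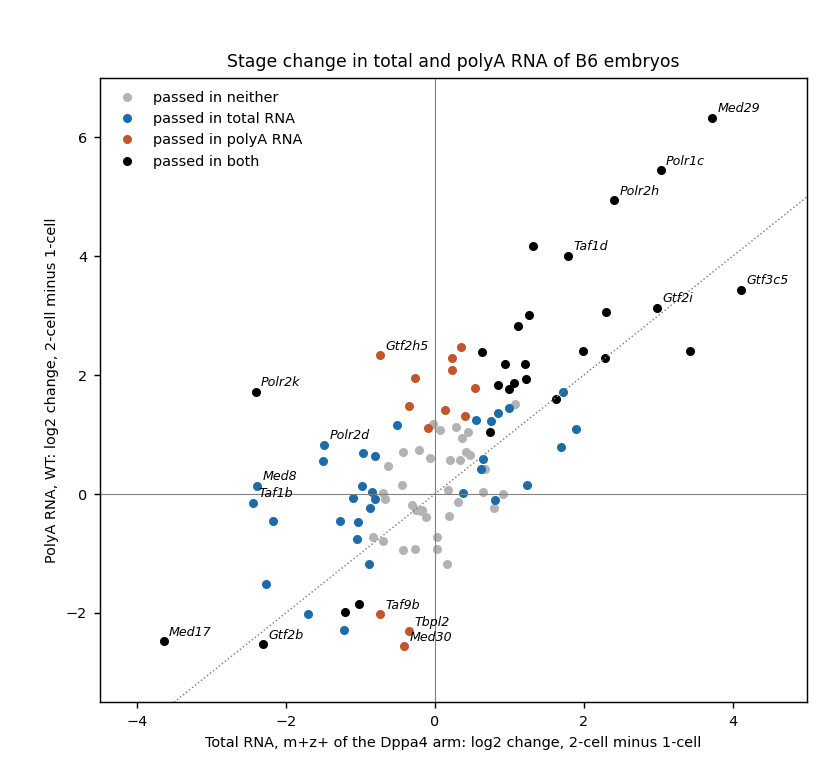
Each point is 1 of the 108 genes, with the log2 difference in (FPKM + 1), 2-cell minus 1-cell, in total RNA of m+z+Dppa4 on the x axis and in polyA RNA of WT on the y axis (2 libraries per stage in each), coloured by where limma's adjusted p was under 0.05; the dotted line marks equal changes. Polr2k is the 1 gene that passed in opposite directions, and Taf1b, Med8 and Polr2d lie at the left near or above the zero line of polyA RNA.

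Between Dppa2 or Dppa4 genotypes no gene of the set differed by the test. In all 13 comparisons of genotype, of stage change between genotypes and of stage change between the arms, limma called 0 of the 108 genes. Few genes of any kind passed: 0.0398% of all genes tested between m-z+Dppa2 and m+z+Dppa2 at the 1-cell stage, 0.186% at the 2-cell stage, 0.00664% and 0% in the Dppa4 arm, 0.00540% between m-z-Dppa2 and m-z+Dppa2 and 0.0162% between m-z-Dppa4 and m-z+Dppa4. Against WT the shares were 0.113% for m-z+Dppa2, 0.0973% for m-z-Dppa2, 0% for m-z+Dppa4 and 0.0648% for m-z-Dppa4. WT is B6 and the Dppa2 arm B6/DBA, so genotype and strain background cannot be told apart where that arm is set against WT. The stage change differed between genotypes in 0% of all genes for Dppa2 and 0.00664% for Dppa4, and between the m+z+ groups of the arms in 0.139%. At an unadjusted p under 0.05, the 108 genes gave 3, 18, 0 and 2 in the m-z+ against m+z+ comparisons (Dppa2 1-cell and 2-cell, Dppa4 1-cell and 2-cell), where all genes gave 3.05%, 12.8%, 1.27% and 2.67%. They gave 8 and 6 in the m-z- against m-z+ comparisons of Dppa2 and Dppa4 (all genes 7.65% and 7%), and 7, 6, 9 and 19 against WT for m-z+Dppa2, m-z-Dppa2, m-z+Dppa4 and m-z-Dppa4 (all genes 7.75%, 6.21%, 6.65% and 10.7%). The tests of stage change gave 11 for Dppa2, 2 for Dppa4 and 24 between the arms (all genes 8.62%, 1.79% and 15.3%).

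The size of these differences was small in total RNA and less well bounded in polyA RNA. Between m-z+ and m+z+ total RNA groups the median difference over the 108 genes was 0.03, 0.06, 0.01 and 0.03 on the log2 scale, and 104, 85, 105 and 104 genes lay within 0.5 of 0. The median standard error of a gene was 0.26. In the polyA comparisons 59 to 76 genes lay within 0.5 of 0, and the median standard error was 0.44 between m-z- and m-z+ and 0.49 against WT. The medians between m-z- and m-z+ were 0.08 for Dppa2 and -0.14 for Dppa4 (all genes -0.07 and 0.08). Against WT they were -0.05 for m-z+Dppa2, 0.09 for m-z-Dppa2, -0.20 for m-z+Dppa4 and -0.19 for m-z-Dppa4. Those of all genes were 0.04, 0, -0.09 and 0. The shares of all genes within 0.5 of 0 are not given. A p that misses the threshold with 2 or 3 libraries a group does not show that a gene was alike in both.

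The gene with the widest single difference in total RNA was Taf7l. At the 2-cell stage it was at 13 and 7.07 FPKM in m+z+Dppa2 and at 2.15 and 1.12 FPKM in m-z+Dppa2, a difference of -2.04 ± 0.45 (SE, log2 scale) that did not pass over all genes (limma adjusted p = 0.0751). Med28 of the Mediator tail was at 13 and 15.2 FPKM in m+z+Dppa2 and at 24.1 and 22.4 FPKM in m-z+Dppa2 (0.68 ± 0.15, adjusted p = 0.0751). The groups did not overlap for either gene. Leaving out 1 library made calls of other genes: Tbpl2 (1.79, adjusted p = 0.0268) and Med21 (1.48, 0.0476) passed without m+z+Dppa2 2-cell replicate 1, Gtf2h3 (-1.10, 0.045) without m+z+Dppa2 2-cell replicate 2, and Polr2c (0.65, 0.0425) and Polr3g (-1.91, 0.0381) without m-z+Dppa2 2-cell replicate 2. No gene was called under more than 1 of these. The share of all genes passing in these fits is not given. In the Dppa4 arm Taf13, a TFIID subunit, had the widest difference at the 2-cell stage, from 8.04 and 4.06 FPKM in m+z+Dppa4 to 17.4 and 14.8 FPKM in m-z+Dppa4 (1.33 ± 0.36, adjusted p = 1). At the 1-cell stage the smallest p values belonged to Med7 (-1.18 ± 0.35) and Taf15 (0.59 ± 0.22) in the Dppa2 arm and to Taf13 (-0.78 ± 0.36) and Med9 (0.59 ± 0.31) in the Dppa4 arm, with adjusted p = 1 for all 4.

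In single embryos of the Dppa4 arm Polr2h had the smallest p. It was at 340, 296 and 170 FPKM in m-z+Dppa4, at 115, 91.2 and 116 FPKM in m-z-Dppa4 and at 414 and 280 FPKM in WT 2-cell embryos. All 3 m-z-Dppa4 embryos lay below the other 5. The difference was -1.26 ± 0.30 (SE, log2 scale) from m-z+Dppa4 (limma adjusted p = 0.437) and -1.66 ± 0.33 from WT (adjusted p = 0.108), so neither passed. The 3 m-z-Dppa4 embryos also held 749 to 1071 FPKM of oocyte markers, against 338 to 728 FPKM in m-z+Dppa4 and 383 and 430 FPKM in WT. The part of that difference in the Polr2h values was not tested. Taf4a was at 42, 8.76 and 9.74 FPKM in m-z-Dppa4 and at 6.17, 1.15 and 2.66 FPKM in m-z+Dppa4 (2.11 ± 0.65, adjusted p = 0.59). In the Dppa2 arm the smallest p was that of Gtf2a1, at 26.8, 26.9 and 28.8 FPKM in the libraries labelled m-z-Dppa2 and at 36, 81.8 and 61.5 FPKM in m-z+Dppa2 (-1.02 ± 0.34, adjusted p = 0.559). Med9os was listed at 0 in both WT 2-cell libraries, at 3.10, 3.93 and 9.93 FPKM in m-z+Dppa2, at 6.59, 0 and 6.47 FPKM in m-z-Dppa2, at 3.23, 2.61 and 2.00 FPKM in m-z+Dppa4 and at 8.95, 11.7 and 7.97 FPKM in m-z-Dppa4, with no call against WT (adjusted p = 0.12 or more). Other genes with the smallest p against WT were Gtf2a2, the small TFIIA subunit, for m-z+Dppa2 (0.94 ± 0.31, adjusted p = 0.388), Med18 for m-z-Dppa2 (1.58 ± 0.67, 0.745), and Taf9b (1.27 ± 0.44, 0.587) and Polr2d (-0.88 ± 0.32, 0.615) for m-z+Dppa4. Differences of the Dppa2 arm from WT, those of Med9os included, may also come from strain background, which was not tested. Med13l followed Gtf2a1 between the Dppa2 genotypes (-1.31 ± 0.49, 0.593).

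The stage change of the 2 m+z+ groups, Dppa2 arm on B6/DBA and Dppa4 arm on B6, differed by a median of 0.23 over the 108 genes and 0.02 over all genes. No gene of the set passed, the smallest adjusted p being 0.0974 for Med15, a tail subunit that fell in m+z+Dppa2 (78.1 and 88.9 to 52.8 and 48.3 FPKM) and was at 76.9 and 81.5 and then 79.0 and 100.454 FPKM in m+z+Dppa4, and for Polr2c. Without m+z+Dppa4 2-cell replicate 1, 11 genes passed: Gtf2f1, Med4, Polr1e, Polr2l, Taf13, Taf1d and Taf7l had the higher change in m+z+Dppa2, and Med15, Med30, Taf5 and Taf9b the lower. Without m+z+Dppa2 2-cell replicate 1, 2 passed (Med21 and Tbpl2, both lower in m+z+Dppa2). The remaining m+z+Dppa4 2-cell library in the first case is the one with the oocyte marker sum of 709 FPKM. The part of that sum in these differences was not tested, and the share of all genes passing in these fits is not given.

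**Figure D4:**
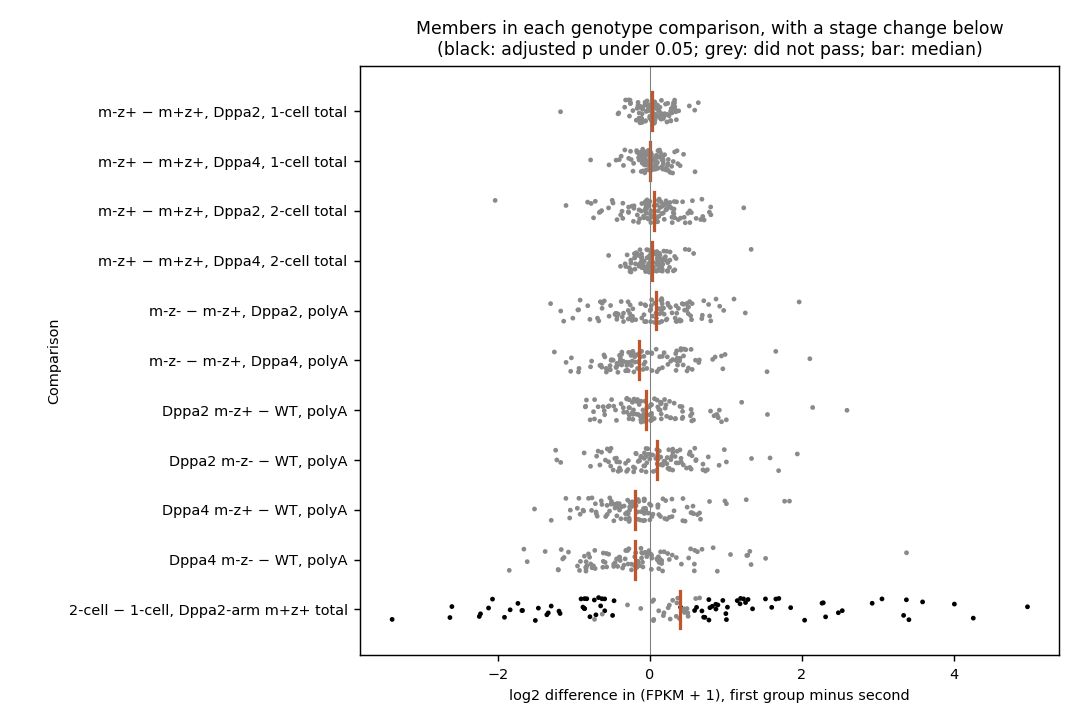
Each point is 1 of the 108 genes, placed by its log2 difference in (FPKM + 1) in 10 genotype comparisons (2 libraries a group in total RNA, 2 or 3 in polyA RNA) and, at the bottom, in the 2-cell against 1-cell comparison of m+z+Dppa2; black points had a limma adjusted p under 0.05 and orange bars are medians. No point is black in a genotype comparison, total RNA points keep close to 0, and polyA points spread further. The Dppa2-arm comparisons with WT also differ in strain background.

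A list of genes that work with these complexes but fall outside the name rule held 55 genes: the TFIIH and Mediator kinases and cyclins, elongation and pause factors, polymerase assembly factors and the remaining factors of polymerases I and III. All 55 were tested. Over m+z+Dppa2, m-z+Dppa2, m+z+Dppa4 and m-z+Dppa4, 25, 24, 18 and 18 rose and 14, 12, 13 and 15 fell, and in WT polyA RNA 20 rose and 0 fell. In the same order 31.7%, 28.8%, 24.9%, 25.3% and 17.4% of all genes tested rose and 29.9%, 28.4%, 24.2%, 25.0% and 8.42% fell. The median log2 changes were 0.62, 0.38, 0.27, 0.24 and 1.09 over the 55 genes and 0.0615, 0.0177, 0.0395, 0.0345 and 0.23 over all genes. Hexim1, an inhibitor of the elongation kinase P-TEFb, rose in m+z+Dppa4 from a mean of 0.624 FPKM to 33.8 FPKM (4.42 ± 0.25 SE, limma adjusted p = 6.19e-08), and Cdk9, the kinase of P-TEFb, from 3.34 to 28.6 FPKM (2.55 ± 0.42, adjusted p = 0.000273). Ubtf, which opens ribosomal RNA genes for polymerase I, rose there from 2.97 to 58.4 FPKM (3.88 ± 0.24, adjusted p = 1.33e-07). Cdk7, the TFIIH kinase, fell from 6.49 to 3.22 FPKM (-0.83 ± 0.28, adjusted p = 0.0244), and in WT polyA RNA its means were 11.8 and 26.5 FPKM (1.09, adjusted p = 0.217). In the comparisons of genotype none of the 55 passed, and between the arms 1 did, Snapc3, a subunit of the factor for small nuclear RNA genes (2.50 ± 0.42, adjusted p = 0.0446).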

How the data were processed

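Total RNA (reverse-stranded kit, 16 libraries) and polyA RNA (unstranded, single embryos, 16 libraries) were analysed from the authors' FPKM tables, 1 per assay. Per the submitters' processing notes, HISAT2 2.1.0 and StringTie 1.3.3b were used with mm10; no label gives the role of each tool, the annotation or the strand setting. The deposited FPKM values carry no counts, so depth is unknown and no counting interval is given. The number of libraries limits the precision.

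Each table was filtered to genes with 2 or more libraries at 1 FPKM or above (15068 in total RNA, 18506 in polyA RNA; all 108 genes of the set in both). Values were taken to log2(FPKM + 1), so fold changes of low genes are understated. limma 3.58.1 (R 4.3.3, statmod 1.5.0; trend and robust settings) fitted 1 mean per group over all 16 libraries of a table, with two-sided p-values adjusted by Benjamini-Hochberg over all genes tested and a threshold of 0.05. The script was tested on simulated data. Summaries and plots used Python 3.11.15, pandas 2.3.3 and matplotlib 3.10.9.

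Alternatives were a pseudocount of 0.1, no filter, TPM scaling, median-ratio scaling, a fit on the compared libraries only, the replicate number as a block, and each library left out. Same-numbered libraries did not deviate together, so numbers were not used as pairs. Named genes were a set of core subunits and paralogues, the 5 largest rises and falls per stage comparison without overlap, the 2 smallest p per genotype comparison, genes that passed oppositely in total and polyA RNA, the 3 highest means per table, and members that go against their complex. Other genes named as examples were chosen after their values were seen. The members, the gene lists and these rules were chosen with earlier results of these data known. Positions are from GENCODE M21 on mm10, 1-based. Where exons overlap on opposite strands, unstranded polyA reads cannot be told apart.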

Additional observations from a re-analysis of the deposited data

How the results depend on the processing

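Of 304 calls of single genes in the 5 stage comparisons, 184 held under every alternative. TPM scaling lost 51 and reversed 1, Gtf2a1 in m+z+Dppa2 (-0.059, adjusted p = 0.756, against 0.40). Median-ratio scaling lost 26, no filter 40, the compared libraries alone 29, the pseudocount of 0.1 5 and the replicate block 6. Leaving out a library lost 267 of 1216 calls. Under TPM scaling 27 genes rose in m+z+Dppa2 and 38 fell in m+z+Dppa4. In WT polyA RNA 11 fell under median-ratio scaling and 11 with the compared libraries alone. Leaving out each library gave 37 to 41 risen and 28 to 33 fallen genes in m+z+Dppa2, 31 to 35 and 20 to 23 in m-z+Dppa2, 24 to 39 and 19 to 26 in m+z+Dppa4, 23 to 30 and 19 to 23 in m-z+Dppa4, and 16 to 21 and 3 to 4 in WT polyA RNA. It gave 0 to 2 genes between Dppa2 genotypes at the 2-cell stage, 0 to 11 for the stage change between arms, and 0 in the other 11 genotype comparisons. A lone library was then assumed to vary like the other groups. Shares of all genes in these fits are not given.

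With the replicate number as a block, 43 genes rose and 34 fell in m+z+Dppa2, 38 and 28 in m-z+Dppa2, 35 and 25 in m+z+Dppa4, 33 and 26 in m-z+Dppa4, and 31 and 8 in WT polyA RNA. Same-numbered libraries correlated in their deviations from group means from -0.143 to 0.139 (56 pairs, total RNA) and from -0.183 to 0.122 (36 pairs, polyA RNA), so the numbers do not pair the libraries. Apart from scaling and single libraries, whose part is given above, the cause of a lost call was not tested. Depth is unknown, and low genes move with the pseudocount.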
